A study of Mus musculus with 48 samples.

Results

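The 10 imprinted genes *Igf2*, *H19*, *Plagl1*, *Peg10*, *Dlk1*, *Meg3*, *Ndn*, *Magel2*, *Snrpn* and *Peg3* were followed in the hypothalamus of control and *Eed-cKO* mouse embryos. They were chosen by name as well-known imprinted genes, with earlier results of these data known. All 10 were present among the 16510 genes of the count table. The study measured UMI counts (unique molecular identifiers, random tags that let each captured transcript molecule be counted once) in single cells of the hypothalamus at E18.5, shortly before birth. Control embryos were Eed fl/fl, in which floxed *Eed* is intact, and *Eed-cKO* embryos were Eed fl/fl; Sox1-Cre/+, in which Sox1-Cre removes exons of *Eed* in neural cells from early development. The study took vascular cells, blood cells and microglia as cells that Sox1-Cre does not reach. Whether *Eed* was kept in the non-neural cells, which also hold leptomeningeal- and pericyte-like cells, was not tested, since *Eed* did not pass the filter on low counts there. All embryos were of a mixed B6:129S1 background. The 48 libraries were pieces of the hypothalami of 6 control embryos (2 female, 4 male) and 9 *Eed-cKO* embryos (5 female, 4 male), and the libraries of an embryo were summed, so that the embryo was the replicate. No litter, as read from the library names, held both genotypes, so genotype and litter cannot be told apart.

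Most autosomal genes are expressed from both parental copies. An imprinted gene is expressed mainly from the copy inherited from 1 parent, because the copies carry different DNA methylation or histone marks at a control region set in the germ line. Polycomb repressor complex 2 (PRC2), of which *Eed* encodes a subunit, places the repressive mark H3K27me3, and this mark is found on the silent copy of some imprinted genes. Imprinted genes are grouped in domains: *Igf2* and *H19* lie together on chromosome 7, *Dlk1* and *Meg3* on chromosome 12, and *Ndn*, *Magel2* and *Snrpn* in the Prader-Willi region of chromosome 7. *H19* and *Meg3* are non-coding RNAs of the maternal copy, and the other 8 genes are known as paternally expressed. The parental copies were not told apart in these counts, so that every value below is the sum over both copies.

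In GENCODE vM21 on mm10 the genes lie at chr7:142650766-142666816 (*Igf2*, minus strand), chr7:142575529-142578143 (*H19*, minus), chr10:13060504-13131694 (*Plagl1*, plus), chr6:4747306-4760517 (*Peg10*, plus), chr12:109452823-109463336 (*Dlk1*, plus), chr12:109541001-109571726 (*Meg3*, plus), chr7:62346569-62350262 (*Ndn*, plus), chr7:62377010-62381640 (*Magel2*, plus), chr7:59982495-60140219 (*Snrpn*, minus) and chr7:6703892-6730431 (*Peg3*, minus). *Snrpn* overlaps *Snurf* on the same strand, and *Igf2* overlaps the antisense gene *Igf2os*, which has its own row in the table. The counts of *Snrpn* and *Igf2* are therefore uncertain where reads could be assigned to a partner.

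DNA methylation is placed at CG dinucleotides, so the CG in the region before a RefSeq start of a gene were counted. Whether this region is part of the control region of imprinting was not tested. RefSeq promoters (GRCm38.p6) of 250 bases before a RefSeq start were matched for 8 of the 10 genes. The *Igf2* promoter richest in CG and the promoters of *Plagl1* and *Ndn* lie inside the GENCODE spans of these genes. Those 3 promoters thus do not precede the GENCODE start. The sequences of *Igf2* and *Plagl1* are shown because these genes differed between the genotypes, and those of *Peg3* and *Ndn* because they passed no edgeR test of a whole cell set. The genes were thus chosen by result, with the *Igf2* promoter richest in CG, and no link of CG content with the differences was tested. Every CG is in capitals.
*Igf2*, chr7:142658805-142659054, minus strand: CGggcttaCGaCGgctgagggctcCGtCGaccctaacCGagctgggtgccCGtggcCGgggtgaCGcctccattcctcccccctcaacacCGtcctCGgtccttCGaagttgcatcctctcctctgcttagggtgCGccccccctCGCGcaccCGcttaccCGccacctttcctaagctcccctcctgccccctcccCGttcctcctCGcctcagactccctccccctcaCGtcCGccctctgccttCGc
*Plagl1*, chr10:13090582-13090831, plus strand: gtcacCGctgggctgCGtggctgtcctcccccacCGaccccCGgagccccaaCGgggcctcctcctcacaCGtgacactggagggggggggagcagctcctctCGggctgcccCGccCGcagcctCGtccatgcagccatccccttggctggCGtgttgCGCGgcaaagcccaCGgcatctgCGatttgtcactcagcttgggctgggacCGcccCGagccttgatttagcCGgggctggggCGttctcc
*Peg3*, chr7:6730420-6730669, minus strand: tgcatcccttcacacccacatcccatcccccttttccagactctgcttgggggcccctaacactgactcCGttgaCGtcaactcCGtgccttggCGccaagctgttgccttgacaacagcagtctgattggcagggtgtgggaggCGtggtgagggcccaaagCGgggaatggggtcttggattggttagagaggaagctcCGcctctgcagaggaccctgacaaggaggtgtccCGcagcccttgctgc
*Ndn*, chr7:62348027-62348276, plus strand: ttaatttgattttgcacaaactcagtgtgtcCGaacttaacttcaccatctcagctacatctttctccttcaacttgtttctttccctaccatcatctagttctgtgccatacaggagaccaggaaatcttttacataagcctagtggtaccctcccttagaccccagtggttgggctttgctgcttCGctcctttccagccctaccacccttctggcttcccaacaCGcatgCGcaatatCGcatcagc
The *Igf2* promoter held 22 CG, a number reached by 14.8% of the 32817 promoters in the table. The other 3 *Igf2* promoters held 10, 6 and 1 CG. The *Plagl1* promoter held 19 CG, a number reached by 19.7% of promoters. *Peg3* had 8 CG (43.0% of promoters have as many) and *Ndn* had 5 (55.6%), where the median over all promoters was 6. Of the genes not shown, *Dlk1* had 8 CG, *Magel2* 7, *Meg3* 10 and 0 in its promoters, and *Snrpn* 2 to 4.

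The table held 14121 cells. Cells were clustered without the imprinted genes, and clusters were named from marker genes, with names that end in "-like" since they rest on markers alone. Neurons were 5874 control and 5007 *Eed-cKO* cells, glia 442 and 780, and non-neural cells 347 and 481. Depth per embryo was 5363119 to 7487417 UMIs in control (1042 to 1664 cells) and 658175 to 6299181 in *Eed-cKO* (217 to 1111 cells). In all, 101 barcodes occurred in more than 1 library (203 cells). The *Eed* check says little, since 3′ tags of *Eed* lie outside the floxed exons: in neurons *Eed* had 30.7 ± 1.96 CPM (UMI counts scaled to a common library total by TMM, SD, n = 6) in control and 23.1 ± 3.10 (n = 9) in *Eed-cKO*. The clusters of some classes differed between the genotypes. Neuron cluster 0, led by *Hox* genes, held 16 control and 1514 *Eed-cKO* cells. In the main clustering, tanycyte-like cells (glia that line the third ventricle) made up 88.7% of control glia and 45.9% of *Eed-cKO* glia. Astrocyte-like cells numbered 8 (control) and 220 (*Eed-cKO*), and ependymal-like cells 42 and 202. These names depended on the clustering, and the tanycyte-like cluster also raised 7 of 9 astrocyte markers. With the imprinted genes kept, clusters named tanycyte-, astrocyte- and ependymal-like held 39, 376 and 41 control and 118, 640 and 44 *Eed-cKO* cells. At a clustering resolution of 0.5 no cluster was named tanycyte-like. Astrocyte marker sums in glia had medians of 15066 (control) and 9922 (*Eed-cKO*) CPM without TMM scaling. Vascular leptomeningeal-like cells, the fibroblasts of the meninges and vessels, were 25.6% of control and 55.7% of *Eed-cKO* non-neural cells, and endothelial-like cells 43.2% and 25.6%. In summed counts, a change in the share of a cell type and a change in RNA per cell cannot be told apart.

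The 10 genes fell into groups by where they were high. Levels were compared between cell sets on 1 scale, TMM-scaled CPM over all sets, as a description with no test. *Meg3*, a non-coding RNA of the *Dlk1* domain, was higher in neurons than in glia in 15 of 15 embryos and than in non-neural cells in 14 of 14. *Ndn*, which encodes a protein of growth control in neurons, was higher in neurons in 15 of 15 and 14 of 14, and *Magel2*, a ubiquitin ligase adaptor lost in Prader-Willi and Schaaf-Yang syndromes, likewise. *Peg10*, derived from a retrotransposon, and *Peg3*, a zinc-finger protein linked to growth and maternal behaviour, were higher in neurons than in glia in 14 of 15 embryos each. *Peg10* was higher in neurons than in non-neural cells in 14 of 14 embryos and *Peg3* in 13 of 14. Other genes ran the other way. *Dlk1*, a transmembrane regulator of differentiation, was 2.59-fold higher in glia than in neurons (15 of 15 embryos). *Plagl1*, a zinc-finger protein that restrains growth, was 2.41-fold higher in glia (14 of 15, the exception being a control embryo). Both ratios pool the genotypes. The *Plagl1* medians, in CPM without TMM scaling, were 182 in glia and 99.0 in neurons of control. In *Eed-cKO* they were 317 and 107, so the pooled *Plagl1* ratio is not that of control. *Igf2*, the insulin-like growth factor of fetal growth, and *H19*, the non-coding RNA next to it, were higher in non-neural cells than in neurons in 14 of 14 embryos each. In CPM without TMM scaling, *Igf2* was at 5973 ± 3457 (SD, n = 6) in control and 9555 ± 1528 (n = 8) in *Eed-cKO* non-neural cells, and at 3.20 ± 1.28 (n = 6) and 12.0 ± 6.62 (n = 9) in neurons. *H19* was at 2128 ± 1611 and 2796 ± 897 in non-neural cells and at 2.08 ± 0.67 and 7.45 ± 3.98 in neurons. *Snrpn*, which encodes a splicing protein, held 42 UMIs in all cells, none of them in glia, cycling progenitor-like or non-neural cells. In neurons it was at 0.67 ± 0.52 TMM-scaled CPM in control (SD, n = 6) and 0.58 ± 0.45 in *Eed-cKO* (n = 9), and it was not tested, having failed the filter on low counts.

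**Figure D1:**
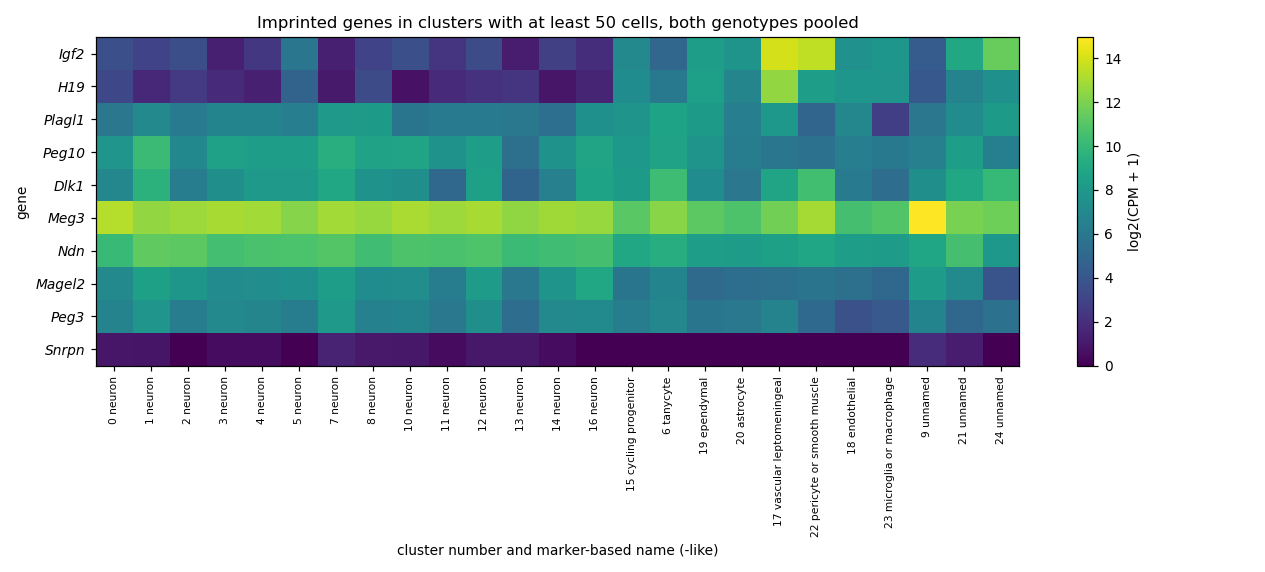
Level of each gene, as log2(CPM + 1) of the pooled counts of both genotypes (colour scale), in the clusters with at least 50 cells. *Igf2* and *H19* are highest in the vascular leptomeningeal-like cluster, *Meg3* in the unnamed low-UMI cluster 9 (31674 CPM; 9991 in neuron cluster 0, the next), *Ndn* in neuron cluster 1 and *Dlk1* in the pericyte- or smooth muscle-like and tanycyte-like clusters, with *Snrpn* near 0 throughout.

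The likeness of expression across the 25 clusters with at least 50 cells was described with Pearson's r of log2(CPM + 1) over 9336 genes, both genotypes pooled. The clusters share libraries and cell depths, so that r is a description. *Ndn* was most like *Pja1* (r = 0.96), *Meg3* like *Inha* (0.94), *Magel2* like *Tub* (0.91) and *Peg3* like *Usp11* (0.87). *H19* was most like *Ahnak* (0.95) and *Igf2* like *Gadd45b* (0.94). *Peg10* was most like *Mrps31* (0.83), *Plagl1* like *Pdcd4* (0.78) and *Dlk1* like *0610011F06Rik* (0.71). *Snrpn*, with 42 UMIs in all, was too sparse to be given a likeness. *Igf2* and *H19* had r = 0.92 with each other over the same clusters.

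To see how the loss of *Eed* bears on these genes, *Eed-cKO* was compared with control in neurons, where 2 of the 9 genes tested were called by edgeR's quasi-likelihood test on counts summed per embryo (Benjamini-Hochberg adjusted p at most 0.05), both higher. Of all 11938 genes tested in neurons, 15.4% were called. *Igf2* was at 1.35 to 4.57 TMM-scaled CPM (median 3.68) in the 6 control embryos and at 5.55 to 25.6 (median 10.98) in the 9 *Eed-cKO* embryos. The highest control lay below the lowest mutant. *Igf2* rose by 2.05 ± 0.30 (log2, SE; edgeR adjusted p = 2.98e-05). *H19* was at 1.08 to 3.02 (median 2.08) in control and 3.26 to 15.5 (median 6.48) in *Eed-cKO*, again without overlap. *H19* rose by 1.84 ± 0.32 (log2, SE; edgeR adjusted p = 0.000224). The embryos of the genotypes did not overlap for 2 of the 9 genes, against 3.61% of all genes tested. These are low levels. A UMI of *Igf2* was found in 1.34 ± 0.70% of the neurons of a control embryo (SD, n = 6) and in 4.46 ± 2.46% of those of an *Eed-cKO* embryo (n = 9). With neurons thinned to 2000 UMIs the shares were 0.72% and 2.00%. Neurons below that depth, 801 control and 661 *Eed-cKO*, were left out of the thinned shares. Microglia- or macrophage-like cells, which should lack *Igf2*, were read for comparison. One such cell of 50 in control held an *Igf2* UMI (2.0%, exact 95% binomial interval 0.0506 to 10.6%, counting error only), as did 4 of 47 in *Eed-cKO* (8.51%, 2.37 to 20.4%). Their median depths were 3026 and 2461 UMIs, against 5114.5 and 4571 in neurons. The 4 *Eed-cKO* cells held 77 *Igf2* UMIs between them, and the 47 cells held 83 UMIs of 6 leptomeningeal marker genes, so the *Igf2* UMIs were not spread evenly over these cells. The *Igf2* shares in neurons before thinning lay within the intervals of these few cells. Intervals this wide cannot decide whether neurons express *Igf2*. The shares are not read as expression in neurons, and whether they are free RNA was not tested. An *H19* UMI was found in 10 of 50 and 13 of 47 of the microglia- or macrophage-like cells and in 1.01 ± 0.38% and 2.61 ± 1.77% of neurons per embryo. For *H19* the exact 95% intervals of these cells, pooled over embryos and with counting error only, were 10.0 to 33.7% and 15.6 to 42.6%. Both lay above the shares in neurons, but they leave out the spread between embryos. No *Eed-cKO* embryo had 10 such cells, so whether the *H19* shares differ between these cells and neurons was not tested.

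**Figure D2:**
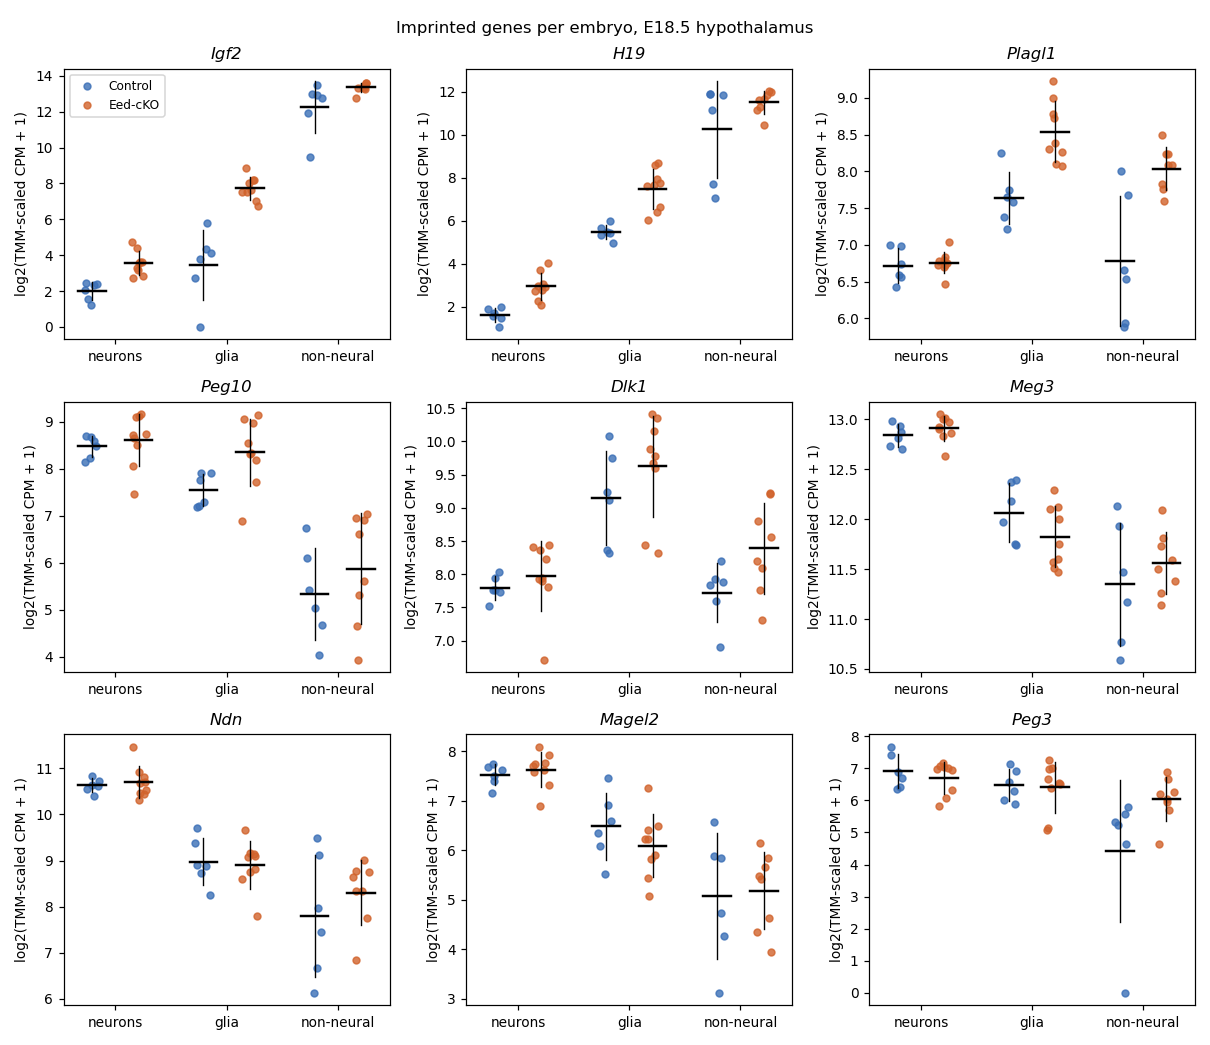
TMM-scaled level of 9 of the genes (log2(CPM + 1)) in each embryo, in neurons, glia and non-neural cells, with the mean (bar) and SD (line) of each genotype. The 6 control embryos (blue) lie below the 9 *Eed-cKO* embryos (orange) for *Igf2* and *H19* in neurons and glia, and the genotypes overlap for the other genes and in non-neural cells.

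The other 7 genes tested in neurons did not pass the threshold. *Dlk1* was at 183 to 261 (median 216) TMM-scaled CPM in control and 104 to 344 (median 245) in *Eed-cKO*, and the log2 difference was 0.26 ± 0.16 (edgeR adjusted p = 0.284). *Peg10* was at 283 to 414 (median 371) and 174 to 570.5 (median 417), with a difference of 0.20 ± 0.17 (adjusted p = 0.465). The ranges overlap for both genes. *Meg3* was at 6653 to 8101 (median 7344) in control and 6354 to 8511 (median 7786) in *Eed-cKO*, a log2 difference of 0.07 ± 0.07. *Ndn* was at 1349 to 1825 (median 1585) and 1267 to 2832 (median 1650), a difference of 0.11 ± 0.12, and *Magel2* at 142 to 212 (median 187) and 117 to 271 (median 207), a difference of 0.15 ± 0.12. *Plagl1* ranged from 85.4 to 127 (median 101) and from 88.0 to 131 (median 107), and *Peg3* from 80.6 to 203 (median 110) and from 55.2 to 142 (median 126). Over the 9 genes the median log2 difference was 0.15, against 0.003 over all genes tested. The neuron calls depended on which neurons were counted. Without cluster 0 the calls were 5 (against 12.4% of all genes), with *Dlk1* (0.59), *Magel2* (0.38) and *Plagl1* (0.31) added, and in *Slc32a1*-only neurons they were 4 (against 9.36%), with *Dlk1* (0.84, edgeR adjusted p = 8.93e-06), *Plagl1* and *Peg10* added to *Igf2* and *H19* lost (adjusted p = 0.205). Without the male *Eed-cKO* embryo of 548 cells, which had the lowest *Dlk1*, *Dlk1* was called in neurons (0.36, adjusted p = 0.0137).

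Within neuron clusters, pooled CPM could be compared in 12 clusters with at least 50 cells of each genotype. *Ndn* was higher in *Eed-cKO* in 11 of them and *Dlk1*, *Peg10* and *H19* in 10 each. *Meg3* was lower in 8 and *Peg3* in 9. These are ratios of pooled libraries with no test. *Ndn* spanned 1086 CPM in cluster 0 to 2568 in cluster 1, a cluster led by *Tbx3* and *Pomc*, and *Dlk1* spanned 27.3 to 794 CPM, with cluster 1 highest. *Peg10* also was highest in cluster 1, at 1162 CPM, and *Plagl1* in cluster 8, at 281 CPM.

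In glia, where the same question was asked, 4 of the 9 genes tested were called, all higher in *Eed-cKO*, against 12.2% of all 8112 genes tested. *Igf2* was at 0 to 53.6 (median 14.7) TMM-scaled CPM in control and 106 to 458 (median 197) in *Eed-cKO*, and it rose by 3.40 ± 0.38 (log2, SE; edgeR adjusted p = 3.07e-07). *H19* was at 30.6 to 61.8 (median 42.8) and 65.7 to 416 (median 199), and it rose by 2.23 ± 0.34 (adjusted p = 3.22e-05). Neither gene overlapped between the genotypes in glia, where 3.04% of all genes tested did not. *Plagl1* was at 147 to 304 (median 195) and 268 to 601 (median 335), so that the ranges overlapped, and it rose by 0.99 ± 0.19 (adjusted p = 0.000473). *Peg10* was at 145 to 239 (median 187) and 117 to 563 (median 323), also overlapping, and it rose by 0.91 ± 0.23 (adjusted p = 0.00883). *Dlk1* was at 320 to 1088 (median 578) and 319 to 1364 (median 879), a log2 difference of 0.52 ± 0.28 (adjusted p = 0.272). *Meg3* (-0.23 ± 0.15), *Magel2* (-0.44 ± 0.27), *Ndn* (-0.06 ± 0.20) and *Peg3* (0.17 ± 0.25) did not pass the test. The median over the 9 genes was 0.52, against -0.01 over all genes tested.

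**Figure D3:**
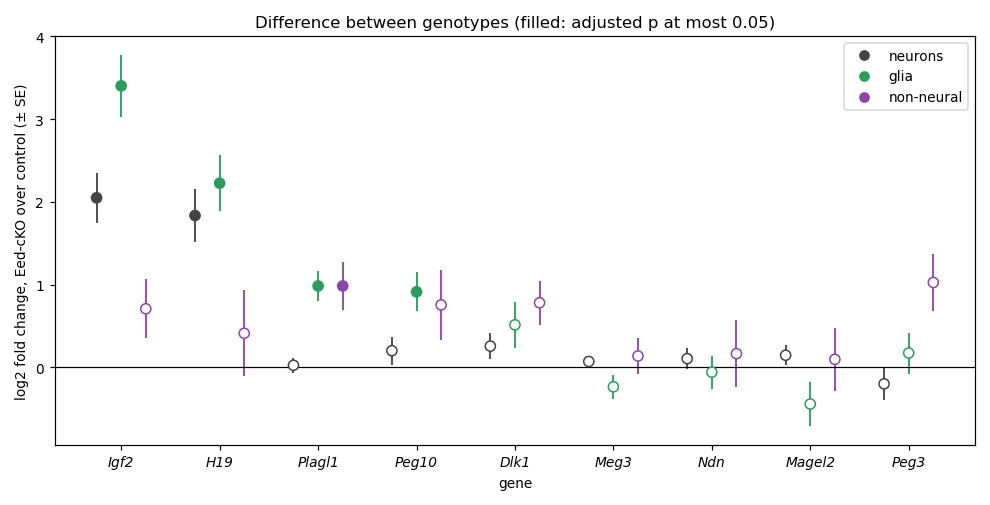
log2 fold change of *Eed-cKO* over control (points) with its standard error (lines) from edgeR, for 9 of the genes in neurons, glia and non-neural cells; filled points have an adjusted p of at most 0.05. *Igf2* and *H19* have the largest values, in glia and neurons, and *Meg3*, *Ndn*, *Magel2* and *Peg3* have open points in all 3 cell sets.

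The glia of the genotypes differed in composition, so the tanycyte-like cluster was tested alone, where 3 of the genes were called, against 16.6% of all genes. This cluster also raised astrocyte markers, and only 39 control and 118 *Eed-cKO* cells were named tanycyte-like with the imprinted genes kept for clustering. Its cell mix may therefore still differ between the genotypes, which was not tested. *Dlk1* in this cluster was at 316 to 1166 CPM (median 596) in control and 1003 to 2819 (median 1724) in *Eed-cKO*, which overlap. There *Dlk1* rose by 1.49 (log2; edgeR adjusted p = 3.25e-05). *Plagl1* was at 146 to 304 (median 191) and 346 to 848 (median 679), with no overlap, and rose by 1.67 (edgeR adjusted p = 7.44e-08). *Peg10* was at 139 to 243 (median 192) and 352 to 875 (median 525), with no overlap, and rose by 1.63 (edgeR adjusted p = 1.53e-07). The share of all genes without overlap in this cluster was not counted, so the lack of overlap is a description. *H19* was at 30.3 to 64.6 (median 47.0) and 12.8 to 305 (median 53.1), and its difference of 0.99 did not pass the test (adjusted p = 0.128). *Igf2* was at 0 to 19.9 (median 8.20) and 12.8 to 102 (median 46.9), and it was too low to enter this fit. In ependymal-like cells of *Eed-cKO* the pooled *Igf2* level was 368 CPM (104 in the 42 control cells), and in astrocyte-like cells 222 CPM (0 in the 8 control cells). Both clusters held few control cells.

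**Figure D4:**
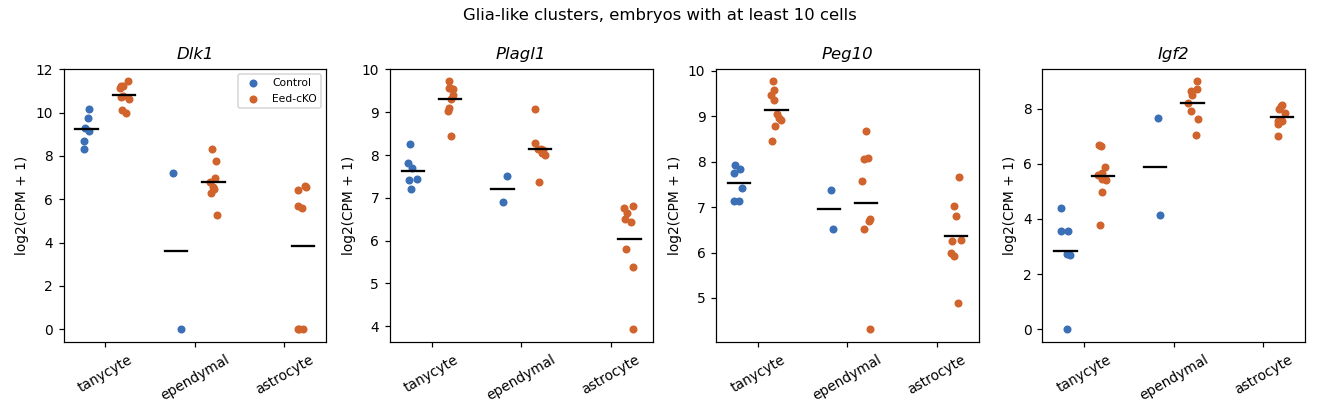
log2(CPM + 1) of *Dlk1*, *Plagl1*, *Peg10* and *Igf2* in tanycyte-, ependymal- and astrocyte-like cells, 1 point per embryo with at least 10 cells (control blue, *Eed-cKO* orange, bar: mean). In tanycyte-like cells the 9 *Eed-cKO* embryos lie above the 6 controls for *Plagl1* and *Peg10* (the share of all genes that do so was not counted). No control embryo has 10 astrocyte-like cells.

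Cells of the meninges carry *Igf2* and *H19* in quantity, so the 6 markers of vascular leptomeningeal-like cells (*Col1a1*, *Col1a2*, *Dcn*, *Lum*, *Col3a1*, *Ogn*) were read in the same cells. Their summed level in neurons was 1.04 to 6.53 CPM (median 2.87) in control and 4.58 to 21.3 (median 12.2) in *Eed-cKO*, and in glia 26.1 to 213 (median 71.8) and 292 to 522 (median 366). *Lum* was at 0 in control neurons, and none of the 6 was at 0 in *Eed-cKO* neurons or in glia of either genotype. The marker sum moved in the same direction as *Igf2* and *H19*, and without overlap in glia. Of the 6 markers, the astrocyte-like cluster raised only *Col1a2* and the ependymal-like cluster only *Col1a2* and *Ogn*. The tanycyte-like cluster raised none (raised: at least 2-fold over other cells and found in at least 10% of cells). The genotype difference of the sum was not split by gene, and its source in glia was not tested. The ratio of *Igf2* UMIs to marker UMIs was 0.938 in control and 0.921 in *Eed-cKO* neurons, 0.202 and 0.512 in glia, and 1.14 and 0.741 in vascular leptomeningeal-like cells. The ratio for *H19* was 0.616 and 0.490 in neurons, 0.414 and 0.512 in glia, and 0.523 and 0.267 in vascular leptomeningeal-like cells. In the 5782 control and 4676 *Eed-cKO* neurons with no UMI of these markers, *Igf2* rose by 2.00 (edgeR adjusted p = 2.37e-05) and *H19* by 1.61 (adjusted p = 0.000549), 2 of the 9 genes against 15.1% of all genes. In the 375 and 417 glia without such a UMI, *Igf2* rose by 3.54 (edgeR adjusted p = 8.85e-07), *H19* by 1.69 (adjusted p = 0.0107) and *Plagl1* by 0.77 (adjusted p = 0.0235), and *Peg10* no longer passed (0.73, adjusted p = 0.116), so that 3 genes were called against 6.35% of all genes. A cell with no marker UMI may still hold RNA of that source, whose part in these differences was not tested.

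**Figure D5:**
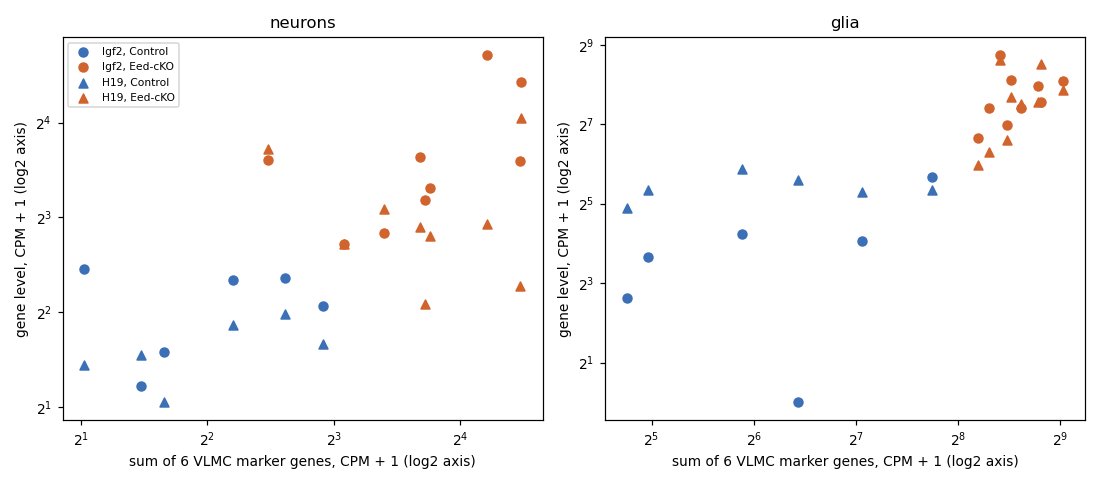
Level of *Igf2* (circles) and *H19* (triangles) against the summed level of 6 vascular leptomeningeal markers, both CPM + 1 on log2 axes, per embryo in neurons (left) and glia (right). In glia the marker sum of the 6 control embryos (blue) is at most 213 CPM and that of the 9 *Eed-cKO* embryos (orange) at least 292 CPM, and in neurons the sums of the genotypes overlap.

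The pituitary markers *Cga*, *Tshb* and *Pitx1* also moved with genotype in neurons, with a sum of 0.153 to 2.25 CPM in control and 5.59 to 11.2 in *Eed-cKO*, and in glia with 0 in every control embryo and 0 to 24.3 in *Eed-cKO*. In glia the sum of the 6 endothelial markers was 71.0 to 107 CPM in control and 120 to 313 in *Eed-cKO*, and that of the 6 tanycyte markers 172 to 610 and 818 to 1535, both without overlap. The astrocyte sum in neurons was 138 to 165 CPM in control and 155 to 243 in *Eed-cKO*, which overlap. Endothelial-like cells also held *Igf2* (88.6 ± 106 CPM in control and 449 ± 539 in *Eed-cKO*, SD, n = 6 each). The part of these cell types in the results was not tested.

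The non-neural cells were compared in the same way. In them, 1 of the 9 genes tested was called, against 6.55% of all 6825 genes tested, over 6 control and 8 *Eed-cKO* embryos (1 embryo with fewer than 10 such cells was left out). *Plagl1* was at 58.1 to 256 (median 95.7) TMM-scaled CPM in control and 194 to 359 (median 271) in *Eed-cKO*, which overlap, and it rose by 0.99 ± 0.29 (log2, SE; edgeR adjusted p = 0.0451). The call was lost when any of 12 of the 14 embryos was left out, with adjusted p up to 0.121. *Igf2* was at 700 to 11533 (median 7313) in control and 6832 to 12480 (median 10587) in *Eed-cKO*, a difference of 0.71 ± 0.36 (adjusted p = 0.288). *H19* was at 131 to 3831 (median 2979) and 1430 to 4245 (median 3217), a difference of 0.41 ± 0.52 (adjusted p = 0.759). *Peg3* differed by 1.03 ± 0.35 (adjusted p = 0.0870) and *Dlk1* by 0.78 ± 0.27 (adjusted p = 0.0908), and *Dlk1* passed without the female *Eed-cKO* embryo of 465 cells (0.86, adjusted p = 0.0459). All 9 values were above 0, with a median of 0.71 against 0.001 over all genes. None of the 9 genes separated the genotypes without overlap, against 2.08% of all genes tested. The share of vascular leptomeningeal-like cells moved with genotype in this set. Within vascular leptomeningeal-like cells alone, *Igf2* was at 13588, 14504 and 17688 CPM in the 3 control embryos with at least 10 such cells and 12129 to 20115 (median 16472) in 8 *Eed-cKO* embryos, *Plagl1* at 229, 270 and 431 in control and 253 to 399 (median 345), and no gene was called. *Igf2* was also high in pericyte- or smooth muscle-like cells, at 5540, 12290 and 17498 CPM in the 3 control embryos.

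Whether the effect of *Eed-cKO* differed between cell sets was tested as an interaction in edgeR with the embryo as a term. Between glia and neurons, 2 of the 9 genes were called, *Plagl1* with an effect 0.96 ± 0.18 higher in glia (log2, adjusted p = 0.000656) and *Peg10* with 0.67 ± 0.16 (adjusted p = 0.00837), against 6.04% of the genes tested. The *Igf2* effect was 1.601 ± 0.54 higher in glia and did not pass (adjusted p = 0.0804), though it passed without control embryo 4 (embryos are numbered in the order of their labels) with 2.25, or without *Eed-cKO* embryo 4, with 1.88. Between non-neural cells and neurons 0 of 9 were called by edgeR (2 at an unadjusted p under 0.05, *Plagl1* and *Peg3*) and 0 by limma-voom, against 2.03% of the genes tested. Leaving out control embryo 1 gave a call for *Plagl1* (1.34, adjusted p = 0.00709), and leaving out control embryo 5 one for *Igf2* (-1.61, adjusted p = 0.0163).

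In All-Hypo, the cells of the hypothalamus without the non-neural clusters, 3 of the 9 genes were called, all higher, against 27.7% of all 12545 genes tested. *Igf2* was at 1.53 to 8.28 (median 4.35) TMM-scaled CPM in control and 29.999 to 399 (median 56.8) in *Eed-cKO*, and rose by 4.71 ± 0.59 (edgeR adjusted p = 4.67e-06). *H19* was at 2.69 to 7.69 (median 5.33) and 17.1 to 71.3 (median 42.0), and rose by 2.99 ± 0.28 (adjusted p = 8.55e-08). Neither gene overlapped between the genotypes, nor did 840 of the 12545 genes tested. *Plagl1* was at 87.1 to 135 (median 107) and 113 to 184 (median 141), which overlap, and rose by 0.37 ± 0.10 (adjusted p = 0.00870). *Dlk1* differed by 0.51 ± 0.19 (adjusted p = 0.0521), and it passed without *Eed-cKO* embryo 6 (0.56) or embryo 8 (0.62, adjusted p = 0.000886). All-Hypo holds unnamed clusters of *Eed-cKO* cells with no control cells. Without the unnamed clusters *Igf2* rose by 3.31 (edgeR adjusted p = 9.86e-09) and *H19* by 2.896 (adjusted p = 6.98e-07). Pooled over embryos, cluster 24 (61 cells) had 2828 CPM of *Igf2* and 184 of *H19*, and cluster 21 (221 cells) 469 and 102. Only 1 embryo had at least 10 cells of cluster 24, and 3 had as many of cluster 21. That 1 embryo held 914 of the 1030 *Igf2* UMIs of cluster 24 (4308 CPM) and 1 of its 67 *H19* UMIs (4.71 CPM).

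The other genes of a list of imprinted genes (45 of 49 in the table) were read in the same fits. In neurons, 7 of the 36 tested were called higher and 3 lower (15.4% of all genes were called). The largest rises were of *Calcr*, the calcitonin receptor next to *Peg10* (0.98, edgeR adjusted p = 9.93e-05), *Mest*, a hydrolase-like gene of fetal growth (0.82), *Rasgrf1*, a Ras exchange factor of neurons (0.78), and *Asb4* (0.70). *Zdbf2* and *Snhg14* rose by 0.48 each, *Jade1* fell by 0.43, *Mkrn3*, a puberty-timing gene of the Prader-Willi region, by 0.29 and *Gnas* by 0.18. In glia, 7 of the 26 tested were called higher and 2 lower (12.2% of all genes). *Mest* rose by 1.79 (567 ± 236 CPM in control, 1953 ± 553 in *Eed-cKO*; adjusted p = 1.11e-06), *Cdkn1c*, a cell cycle inhibitor, by 1.39, *Igf2r*, the receptor that clears *Igf2* protein, by 1.19, *Asb4* by 1.13, *Zdbf2* by 1.05 and *Gab1* by 0.67, while *Usp29* fell by 1.09 and *Smoc1* by 0.97. With 1 embryo left out at a time, the call of *Usp29* in glia was lost in 3 of 15 fits (highest adjusted p 0.217), and in neurons those of *Jade1* in 2 (0.0705), *Mkrn3* in 5 (0.0782) and *Gnas* in 8 (0.0683). In non-neural cells, *Zdbf2* rose by 1.304 and *Impact* by 0.79 (lost in 2 of 14 such fits, highest adjusted p 0.0540), 2 of 23 tested, a share near the 6.55% of all genes. In All-Hypo, 9 of the 37 tested were called higher and 4 lower (27.7% of all genes), with *Mest* (2.18) and *Gab1* (1.03) rising most and *Mkrn3* (-0.42) and *Inpp5f* (-0.36) falling most.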

How the data were processed

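Hypothalamus cells of 15 embryos in 48 libraries were analysed. The authors deposited a raw table of UMI counts, a gene a row and a cell a column, from Illumina's SureCell software with STAR 2.5.2b on mm10 (SAMtools 1.3 is also named in the submitters' processing notes). They had dropped cells with few UMIs or genes (the lowest cell held 601 UMIs). The counts were summed per embryo and cell set, so that embryos are replicates and the tests weigh the genotype difference against the spread between embryos. The embryos came from 4 control and 6 *Eed-cKO* litters. The main fits had no litter term, so embryos of 1 litter were treated as independent.

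Clustering used scanpy 1.11.5 with Leiden (leidenalg 0.10.2, 2000 variable genes without the imprinted list, 30 principal components, 15 neighbours, resolution 1, seed 0). Likely doublets were removed only as an alternative (6% of cells). A cluster was named where at least 3 markers, and a share over 0.5 of the type's markers, were raised at least 2-fold. No other type could have more markers among its leading genes. For neurons, at least 3 markers had to be no lower than in other cells, and no other type could come near the rule. A low-UMI cluster with no marker of its type among its leading genes stayed unnamed. Counts were tested in edgeR 4.0.16 under R 4.3.3 (quasi-likelihood, TMM, Benjamini-Hochberg at 0.05). Neurons and All-Hypo had the gene filter of the study (15 UMIs in total, 2 in 1 embryo, median log-CPM of 1.5), and glia and non-neural cells edgeR's default filter; an embryo needed 10 cells. limma 3.58.1 and DESeq2 1.42.0 were alternatives, as were scaling, filters, libraries or litters as samples, sex as a covariate, clustering, and each embryo left out. The fits were checked on simulated counts with known changes. Names of clusters rest on rebuilt clusters.

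The members and lists were chosen with earlier results of these data known. Named genes were the 10 members, and up to 6 called rises and 6 called falls of the other imprinted genes, by log2 fold change. Python 3.11.15, numpy 2.4.6, scipy 1.17.1, pandas 2.3.3 and igraph 0.11.9 were used.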

Additional observations from a re-analysis of the deposited data

Results flagged for a closer look

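A Dixon test within the embryos of a genotype was run on 72 groups of values, of which 6 had an outlying embryo; chance flags about 1 in 20 groups. In neurons of *Eed-cKO*, *Dlk1* was lowest in 1 embryo (104 TMM-scaled CPM, the next 224) and *Ndn* highest in 1 (2832, the next 1925). In glia, *Igf2* of 1 control embryo was 53.6 (the next 19.02) and *Magel2* of 1 *Eed-cKO* embryo was 151 (the next 88.5). In non-neural cells, *Igf2* of 1 *Eed-cKO* embryo was 6832 (the next 9945). In All-Hypo, *Igf2* of 1 *Eed-cKO* embryo was 399 (the next 149).

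The *Eed-cKO* effect differed between glia and neurons, by the interaction test, for *Plagl1* (0.96, log2, glia minus neurons), *Peg10* (0.67), *Igf2r* (1.39), *Cdkn1c* (1.16), *Mest* (1.00), *Zdbf2* (0.58), *Nnat* (-0.56) and *Smoc1* (-1.02). Between non-neural cells and neurons it differed for *Impact* (0.83).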

How the results depend on the processing

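Of 964 gene fold changes under the alternatives, 867 kept direction and side of the threshold, 46 lost the call, 20 gained one and 31 turned direction. *Igf2* and *H19* in neurons kept direction in every alternative; *H19* lost its call in *Slc32a1*-only neurons. Counts of members called moved in 14 of 69 settings. In neurons the main count was 2, and it was 4 with libraries as samples, without the 3 *Eed-cKO* embryos with under 600 cells and in *Slc32a1*-only neurons, and 5 without cluster 0. In non-neural cells the main count was 1, and it was 0 with DESeq2 size factors, with a filter of 15 UMIs, with no gene filter, with litters as samples, with sex as a covariate, without likely doublets, in vascular leptomeningeal-like clusters alone and in the endothelial-like cluster alone, and 2 by DESeq2 and by limma-voom. Leaving out 1 embryo at a time gave 2 to 3 calls in neurons, 4 in glia in every fit, 0 to 1 in non-neural cells, 3 to 4 in All-Hypo, 2 to 3 for the difference between glia and neurons and 0 to 1 for that between non-neural cells and neurons. Counts over all genes moved in 10 of 61 settings; in neurons 3881 genes were called with libraries as samples, 1029 by limma-voom and 957 in *Slc17a6*-only, 1168 in *Slc32a1*-only neurons, against 1836, in glia 419 by limma-voom and 381 without cells with leptomeningeal marker UMIs against 988, in non-neural cells 285 with sex as a covariate, 181 in vascular leptomeningeal-like clusters and 43 in the endothelial-like cluster against 447 (278 to 440 leaving out 1 embryo at a time), and in All-Hypo 5881 with libraries as samples against 3474. With library size alone 67.7% of All-Hypo calls were higher against 55.2%. Leaving out 1 embryo at a time turned some small values: *Ndn* ranged from -0.015 to 0.16 in neurons, -0.18 to 0.13 in glia, -0.023 to 0.61 in non-neural cells and -0.12 to 0.042 in All-Hypo, *Plagl1* from -0.026 to 0.087 in neurons, *Magel2* from -0.089 to 0.34 in non-neural cells and -0.090 to 0.046 in All-Hypo. The difference of effects ranged for *Ndn* from -0.20 to 0.015 between glia and neurons and -0.00019 to 0.63 between non-neural cells and neurons, where *Meg3* ranged from -0.039 to 0.28 and *Magel2* from -0.32 to 0.12. Values that turned direction under other settings were, in order: in neurons, *Plagl1* -0.015 with libraries and -0.0014 with litters as samples and -0.018 in *Slc17a6*-only neurons, *Meg3* -0.016 in *Slc17a6*-only, -0.13 in *Slc32a1*-only neurons and -0.14 without cluster 0; in glia, *Ndn* 0.066 by limma-voom, 0.039 with litters as samples, 0.00076 without likely doublets, 0.062 without marker UMIs and 0.40 in the tanycyte-like cluster, *Meg3* 0.38 and *Magel2* 0.25 in that cluster; in non-neural cells, *Meg3* -0.044 and *Ndn* -0.47 without likely doublets, *Meg3* -0.043, *Igf2* -0.0082, *H19* -0.68 and *Plagl1* -0.036 in vascular leptomeningeal-like clusters, *Meg3* -0.093 and *Ndn* -0.20 in the endothelial-like cluster; in All-Hypo, *Ndn* 0.040 and *Magel2* 0.019 with library size alone, *Ndn* 0.0095 and *Magel2* 0.0057 by limma-voom, *Ndn* 0.043 and *Magel2* 0.014 with libraries as samples, *Magel2* 0.044 with litters as samples and 0.023 without unnamed clusters, *Ndn* 0.11 and *Magel2* 0.10 without the 3 small embryos. The cause was not tested. Astrocyte-like cells alone were not run (0 control embryos with 10 cells). The comparisons of subsets of cells, of marker-free cells and without 3 embryos were chosen after seeing the data. Thinning cells to 2000 UMIs, with cells below that depth left out, moved 32 of 60 shares. No paired analysis was possible because the genotypes share no embryo or litter and the replicate numbers are in accession order.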

Other observations

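Cycling progenitor-like cells (150 control and 195 *Eed-cKO*) were not tested on their own. They were counted in All-Hypo and, in an alternative, added to glia. *Igf2* had 0 UMIs in all 6 control embryos and 32.7 to 432 CPM (median 194) in the 7 *Eed-cKO* embryos with at least 10 such cells. *H19* was at 7.83 to 106 CPM (median 13.8) in control and 132 to 379 (median 212) in *Eed-cKO*. *Peg10* was at 26.4 to 225 (median 104) and 25.3 to 492 (median 336), and *Plagl1* at 54.8 to 221 (median 136) and 98.0 to 380 (median 260). The leptomeningeal marker sum in the same cells was 0 to 52.9 CPM (median 7.21) in control and 0 to 231 (median 62.7) in *Eed-cKO*.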
